A study of Arabidopsis thaliana with 18 samples.

Results

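The comparison described here set seedlings of Arabidopsis thaliana that carry a dominant-negative form of the heat shock factor HSFA6b (labelled HSFA6b-RD, here RD) against Col-0, the wild type (WT), after 6 h in 150 mM NaCl. Its members were chosen by sample title, and they are 4 of the 18 arrays of the series, with 2 biological replicates in each group. Seedlings of both genotypes were 7 days old and had been raised at 22 °C on medium of 0.5 strength MS that held 1% sucrose. Untreated RD and WT seedlings and a line that overexpresses HSFA6b (HSFA6b-OE, here OE), with and without NaCl, were used beside them, again with 2 arrays each. The remaining arrays held the 3 genotypes after 1 h at 37 °C. An array name such as RD NaCl 2 stands for replicate 2 of RD seedlings in salt. The labels do not give the promoter of either construct, the number of independent lines or the number of pooled seedlings. RNA came from seedlings, a mixture of cell types, so fewer cells of a type and less RNA per cell cannot be told apart.

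Heat shock factors are DNA-binding proteins that switch on genes of heat shock proteins, the chaperones that hold, refold or disaggregate damaged proteins. Small heat shock proteins hold unfolded clients, HSP70 proteins refold them, and HSP100 (ClpB) proteins pull aggregates apart. Plants make many of these chaperones under salt as well as under heat. Auxin is a growth hormone, and 2 classes of early auxin-induced transcripts recur below. SAUR transcripts (small auxin up RNAs) encode short proteins tied to cell expansion, and Aux/IAA genes encode repressors of auxin-responsive transcription.

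The levels are MAS5 signals, linear probe set intensities scaled by the authors to a common mean on every array. Of 22746 probe sets other than controls, the 15156 called Present (detected) on both RD NaCl or both WT NaCl arrays were tested. A difference is that of the log2 signals, RD minus WT, with its standard error (SE) from a limma fit over all 18 arrays with the replicate number as a block, and a p-value adjusted by Benjamini-Hochberg over all 15156. A probe set passed at an adjusted p under 0.05. Present calls covered 66.4% to 69.7% of the probe sets on the 4 arrays. The array identifiers of WT NaCl 1, OE NaCl 1 and WT heat 1 belong to another series than those of the other 15 arrays, RD NaCl 1, RD NaCl 2 and WT NaCl 2 among them. Across probe sets, which are not independent replicates, WT NaCl 1 correlated at 0.909 with WT NaCl 2, whereas RD NaCl 1 and RD NaCl 2 correlated at 0.954. The clock gene CCA1 had signals of 495 and 7955 in WT, 931 and 6258 in RD and 760.1 and 8181 in OE under NaCl, so the replicates numbered 2 were the higher ones in each genotype. RD NaCl 1 stood apart in 23 probe sets of mitochondrial genome transcripts, picked by gene name, with a median log2 signal of 8.05 against 6.41 on RD NaCl 2 and 6.93 and 6.43 on the WT NaCl arrays. The part of these differences between libraries in the results below was not tested. The leaf genes RCA and GapA gave signals of at least 27252 on all 4 arrays. Of 4 root marker probe sets (EXPA18, EXPA7, SHR and WER), 0 were called Present on any of the 4 arrays, while all 4 were Present on both WT control arrays.

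Under NaCl, 68 probe sets were lower and 2 were higher in RD than in WT, which is 0.462% of those tested (0.449% lower and 0.0132% higher). At an unadjusted p under 0.05 there were 996. The lower transcripts included 13 described as auxin-induced, 9 heat shock proteins and 1 heat shock factor, and they differed by 1.20 to 5.44 on the log2 scale, against a median of -0.01 over all tested probe sets. Of the 70 probe sets 23 were assigned to 1 gene, 3 to several and 44 to none, so many are known only by the description the array files give them. Of the 68 lower ones 45 were Present on both RD NaCl arrays, 13 on 1 and 10 on 0. Fold sizes outside those 45 therefore rest at least partly on signals not called Present. Fewer passed without single arrays, 50 without RD NaCl 1, 26 without RD NaCl 2, 41 without WT NaCl 1 and 9 without WT NaCl 2, whereas 129 passed within the first array series, which leaves out WT NaCl 1, OE NaCl 1 and WT heat 1 together. With the replicate block set separately within each treatment, an alternative added after the data were seen, 130 passed. A fit on the 4 arrays alone gave 0, with a lowest adjusted p of 0.0966 and 819 at an unadjusted p under 0.05. All 70 kept their direction in each of 14 alternative fits. Both RD arrays already lay below both WT arrays in all 68 lower ones, so a change of direction was unlikely in advance.

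**Figure D1:**
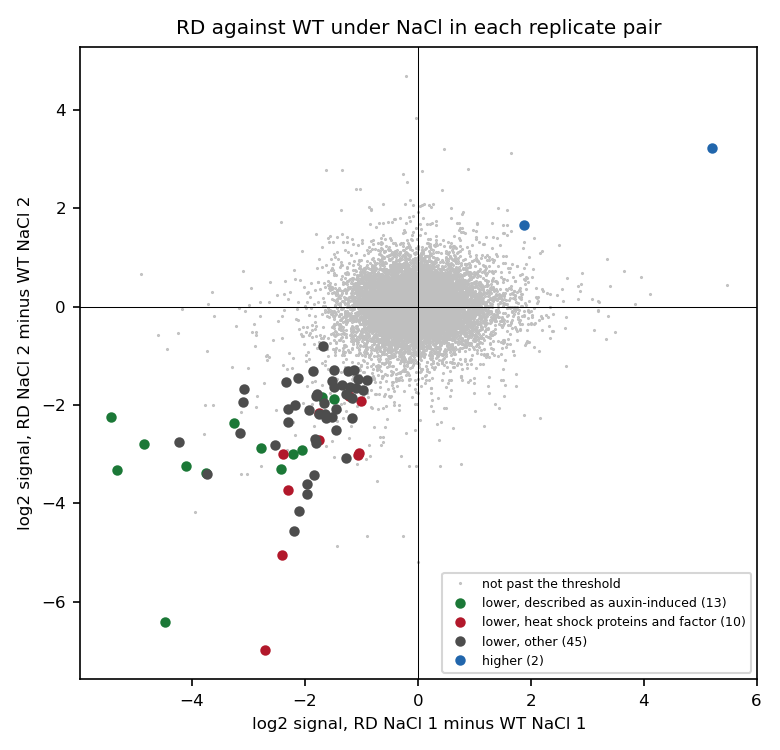
Log2 signal of RD minus WT under NaCl for each tested probe set, in replicate pair 1 (x axis) and replicate pair 2 (y axis). Grey points did not pass, and coloured points are the 70 that did, by the blocks used in the text; the 68 lower ones lie below 0 in both pairs and the 2 higher ones above 0 in both.

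The probe set 258325_at was the largest difference upward. The array files describe it as a putative heat shock protein similar to a putative heat shock transcription factor, and no table used here assigns it a gene. Its signals were 329 and 1307 in WT and 12183 and 12134 in RD under NaCl, a difference of 4.21 ± 0.49 (SE, adjusted p = 0.00307) or 18.5-fold. Without NaCl it stood at 22.5 and 27.8 in WT, 3447 and 4120 in RD and 1652 and 1449 in OE, and in OE with NaCl at 7692 and 8275. It was thus low in untreated WT and high in both lines made with HSFA6b, and its WT NaCl signals lay between. No probe set was named for HSFA6B in the tables used here, so a check of the labels through that gene was not made. The other higher probe set, 255575_at, is described as similar to a nodulin gene of Medicago. It had signals of 78.7 and 105 in WT and 291 and 329.9 in RD under NaCl (1.77 ± 0.30, adjusted p = 0.0191), and 74.3 and 53.7 in OE.

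The lower calls described as auxin-induced are treated as a block because of their descriptions. In each, both RD NaCl arrays lay below both WT NaCl arrays, below both OE NaCl arrays and below the untreated RD arrays. The first 2 held for all 68 lower calls, and the share of all tested probe sets below untreated RD was not counted. Lower calls were picked for low RD NaCl signals. All these positions were therefore partly fixed in advance, and they do not define the block. Of 23 tested probe sets described as SAUR-type or similar small auxin-induced proteins, 11 were lower and 0 higher in RD under NaCl (47.8%, against 0.449% of all tested), and the median difference was -2.82. Of 33 described as Aux/IAA or other auxin-induced proteins 2 were lower and 0 higher, with a median of -0.35. These families were drawn up from the descriptions after values had been seen, so the counts describe and do not test them. Of 36 SAUR-type probe sets on the array 23 were tested. Those not Present on both RD NaCl arrays entered the test through WT alone, so the share of lower calls depends in part on the filter. SAUR genes often lie in clusters of close copies, and the suffixes _s_at and _x_at mark probes shared with related transcripts, so which copy gave the signal is uncertain.

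SAUR-AC1 (AT4G38850) had the smallest p among them. Its signals were 505 and 282 in untreated WT and 546 and 536 in WT with NaCl, 311 and 358 in untreated RD and 31.9 and 57 in RD with NaCl. The RD NaCl pair lay below all of the others, and the difference was -3.67 ± 0.36 (adjusted p = 0.000961), a 12.7-fold lower level. Only 1 of the 2 RD NaCl arrays called SAUR-AC1 Present, so this fold rests partly on a signal not called Present. In OE with NaCl it stood at 755 and 938.

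The probe set 259331_at, described as similar to a SAUR of radish, had signals of 197 and 238 in WT NaCl and 8.9 and 2.8 in RD NaCl. Neither RD NaCl array called it Present, so RD was at least 21.3-fold lower (fitted difference -5.44 ± 0.83, adjusted p = 0.012). A second radish-like SAUR, 259332_at, went from 81.7 and 139 in WT to 15.3 and 14.1 in RD, again without a Present call in RD and at least 7.25-fold lower (adjusted p = 0.0149). Without NaCl, RD and WT overlapped in 259332_at, at 90.4 and 34.1 in RD and 67 and 56.1 in WT.

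A set of 5 probe sets is described as similar to 1 auxin-induced protein of soybean. Among these, 259783_at had 1213 and 1526 in WT NaCl, 1280 and 1955 in OE NaCl and 89.7 and 147 in RD NaCl (-3.57 ± 0.40, adjusted p = 0.00273). The signals of 259773_at were 1305 and 2520 in WT and 281 and 316 in RD (-2.60 ± 0.47, adjusted p = 0.0259). Those of 257506_at were 1204 and 774 in WT and 42 and 112 in RD (-3.81 ± 0.65), of 259787_at 200.2 and 274 in WT and 5.0 and 27.5 in RD (-4.32 ± 0.77), and of 259790_s_at 698 and 368 in WT and 16.2 and 77.9 in RD (-3.83 ± 0.62). In each of the 5 both RD NaCl arrays lay well below both WT NaCl arrays.

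The remaining SAUR-type calls were 253255_at, described as like soybean X15, at 763 and 1059 in WT and 184 and 139.6 in RD (-2.49 ± 0.36), 253207_at, described as like a small auxin up-regulated RNA of apple, at 239 and 288 in WT and 24.9 and 55.5 in RD (-2.82 ± 0.42), and 250012_x_at at 729 and 1515 in WT and 106 and 208 in RD (-2.83 ± 0.56). Of the 12 SAUR-type probe sets that did not pass, values ran from -3.19 (259784_at) to 2.19 (245136_at, signals 11.6 and 272 in WT and 200.5 and 326 in RD), so the family did not lie on 1 side.

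Among the repressors, IAA1 (AT4G14560) had signals of 347 and 545 in WT NaCl and 124 and 149 in RD NaCl (-1.68 ± 0.32, adjusted p = 0.0385), while the untreated arrays of the 2 genotypes read 542 and 370.0 in WT and 611 and 589.8 in RD. The probe set 249109_at, described as AUX2-11, had 931 and 1080 in WT and 288 and 301 in RD (-1.77 ± 0.30). Of the other genes in the list of auxin response, where 2 of 7 tested members passed, the highest signals belonged to GH3.3, which encodes an enzyme that conjugates auxin to amino acids (5720 and 13665 in WT and 18513 and 12045 in RD, 0.76 ± 0.52), IAA2 (10025 and 10126 in WT and 6254 and 4731 in RD, -0.89 ± 0.27) and the conjugating enzyme WES1 (3169 and 9153 in WT and 5922 and 7650 in RD, 0.32 ± 0.39). None of these 3 passed.

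**Figure D2:**
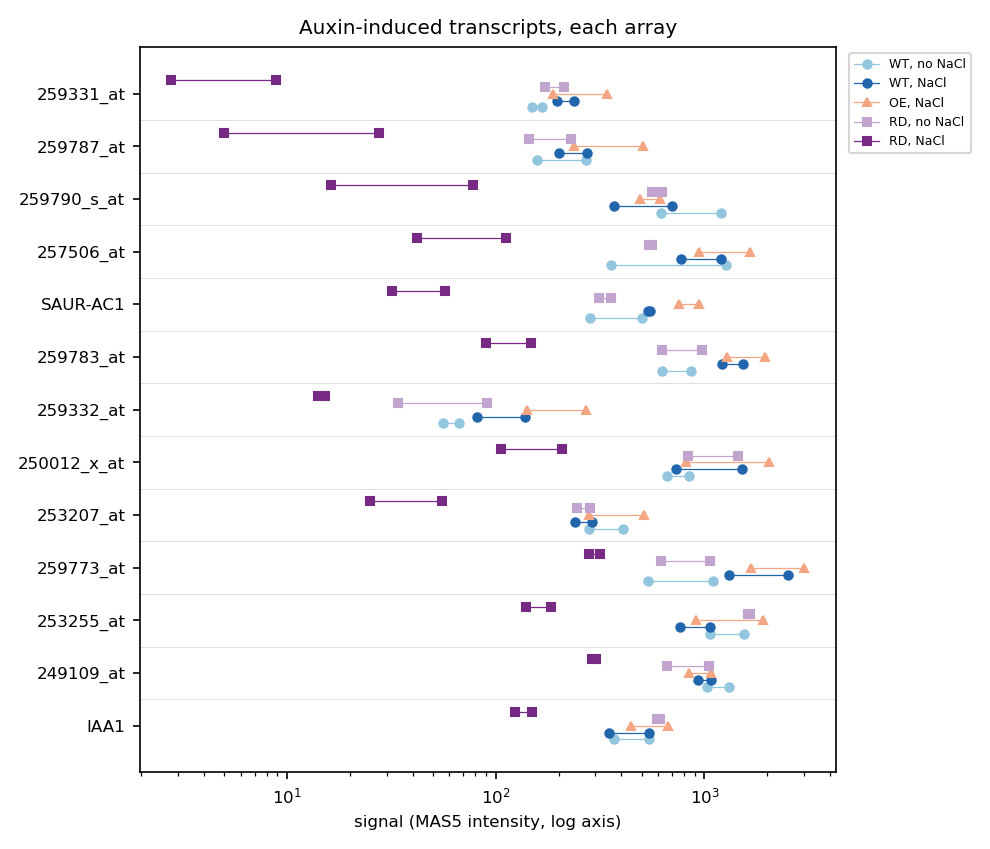
MAS5 signal on a log axis of the 13 lower probe sets described as auxin-induced, with 1 symbol per array and a line between the 2 replicates of a group. The RD NaCl arrays are the lowest pair in each row, while untreated RD lies near WT and OE.

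Without NaCl this block did not show the difference. In 10 of its 13 probe sets the untreated RD and WT arrays overlapped, in 3 both RD arrays were above both WT arrays and in 0 below (over all tested probe sets 15.8% lay above and 16.2% below). Their median untreated difference was -0.14, against -2.86 under NaCl. The calls rested on single arrays to different degrees, since of the 11 SAUR-type calls 4 remained in number without RD NaCl 1, 6 without RD NaCl 2, 7 without WT NaCl 1 and 2 without WT NaCl 2, while 14 of 23 were lower with the replicate block within each treatment. SAUR-AC1 and 259783_at passed in each of these 4 fits, with a highest adjusted p of 0.00931 and 0.0314.

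Heat shock proteins made up the second block, and here both RD NaCl arrays lay above both untreated RD arrays in all 10 members while staying below both WT NaCl arrays. The latter held for all 68 lower calls, and the share of all tested probe sets above untreated RD was not counted. For AT1G52560 the former rested on 3.8 on RD NaCl 2 against 2.3 on both untreated RD arrays, none of these called Present. Of 11 tested genes in the list of small heat shock proteins 5 were lower and 0 higher in RD, with a median of -2.27 (all tested, -0.01), and all 11 were lower in both replicate pairs (27.2% of all tested were). Of 16 tested probe sets described as small heat shock proteins 6 were lower, and of 19 described as HSP70, HSP90 or HSP100 proteins 3 were, with medians of -2.04 and -0.70. These counts also depended on single arrays. Without RD NaCl 2 or without WT NaCl 2 both families had 0 calls, without WT NaCl 1 they had 3 and 2, and without RD NaCl 1 they had 6 and 3. With the replicate block within each treatment they had 10 and 3, and 9 of the 11 listed small heat shock proteins were lower.

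HSP17.6II (AT5G12020), a cytosolic small heat shock protein, had signals of 50.1 and 123 in untreated WT, 3450 and 4183 in WT with NaCl and 5804 and 5991 in OE with NaCl. In RD it stood at 30.1 and 90.1 without and 703 and 317 with NaCl. Both RD NaCl arrays exceeded the untreated ones and lay below every WT and OE NaCl array, with a difference of -3.01 ± 0.50 (adjusted p = 0.0168) or 8.04-fold against WT.

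HSP23.6-MITO (AT4G25200), which works in mitochondria, read 4235 and 4718 in WT NaCl and 796 and 143 in RD NaCl (-3.73 ± 0.66, adjusted p = 0.0248). The 2 RD arrays were far apart, and both lay below the WT and OE arrays. AT5G51440, described as like a mitochondrial heat shock protein, read 1076 and 1693 in WT and 538 and 445 in RD (-1.46 ± 0.27, adjusted p = 0.026).

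AT5G37670, described as a cytosolic class I small heat shock protein, had 946 and 1289 in WT NaCl and 181 and 162 in RD NaCl (-2.69 ± 0.37, adjusted p = 0.00747). AT1G52560, described as located in chloroplasts, had 325 and 481 in WT and 49.9 and 3.8 in RD, where 1 of 2 arrays called it Present (-4.84 ± 0.93, adjusted p = 0.0358). The probe set 247691_at, described as heat shock protein 18, had 672 and 684 in WT and 201 and 152 in RD (-1.95 ± 0.26, adjusted p = 0.00518). The 3 brightest list members that did not pass were HSP17.6A (17570 and 20580 in WT and 7755 and 3816 in RD, -1.81 ± 0.45), AT1G53540 (6000 and 9037 in WT and 2140 and 1088 in RD, -2.27 ± 0.67) and AT2G29500 (4096 and 4270 in WT and 1334 and 599.6 in RD, -2.23 ± 0.49), in each of which both RD arrays were below both WT arrays (15.1% of all tested). With the replicate block within each treatment, the alternative added after the data were seen, these 3 passed, with adjusted p = 0.0156, 0.0181 and 0.00336.

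Among larger chaperones, 265675_at, described as a 70kD heat shock protein, had signals of 2236 and 5350 in WT NaCl and 1072 and 658 in RD NaCl (-2.04 ± 0.37, adjusted p = 0.0248). Another HSP70, 261838_at, had 2976 and 3878 in WT and 1449 and 493 in RD (-2.01 ± 0.37), and 264402_at, described as HSP100/ClpB, 539.9 and 799 in WT and 233 and 226 in RD (-1.52 ± 0.25). AT5G48570, described as a peptidylprolyl isomerase, an enzyme class that helps proteins fold, was the only 1 of 12 tested genes to pass in the list of HSP70, HSP90, HSP100 and co-chaperones. It read 11299 and 16099 in WT NaCl, 13064 and 14603 in OE NaCl and 3597 and 3524 in RD NaCl (-1.92 ± 0.24, adjusted p = 0.00405). The brightest members that did not pass were the constitutive HSC70-1 (12762 and 16448 in WT and 12833 and 15199 in RD, -0.05 ± 0.23), the disaggregase HSP101 (16921 and 16032 in WT and 8849 and 8030 in RD, -0.97 ± 0.51) and the HSP70 co-chaperone Fes1A (11764 and 14840 in WT and 9279 and 9387 in RD, -0.50 ± 0.24). HSP101, Fes1A and HSC70-1 differ in their overlap, since both RD arrays were below both WT arrays for HSP101 and Fes1A, while the 2 genotypes overlapped in HSC70-1.

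Of 18 tested probe sets described as heat shock factors, 1 was lower, 1 was higher (258325_at, above) and 16 did not pass. The lower one, 247509_at, is described as heat shock factor 6, and the tables used here assign it no gene. It had signals of 1335 and 3452 in WT NaCl, 1906 and 4089 in OE NaCl and 399 and 524 in RD NaCl (-2.23 ± 0.32, adjusted p = 0.00889), and 358 and 478 in untreated WT against 112 and 173 in untreated RD (-1.57 ± 0.32, adjusted p = 0.143). HSF4 (-0.64 ± 0.23), HSF1 (-0.45 ± 0.39) and HSF3 (-0.08 ± 0.28) did not pass.

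**Figure D3:**
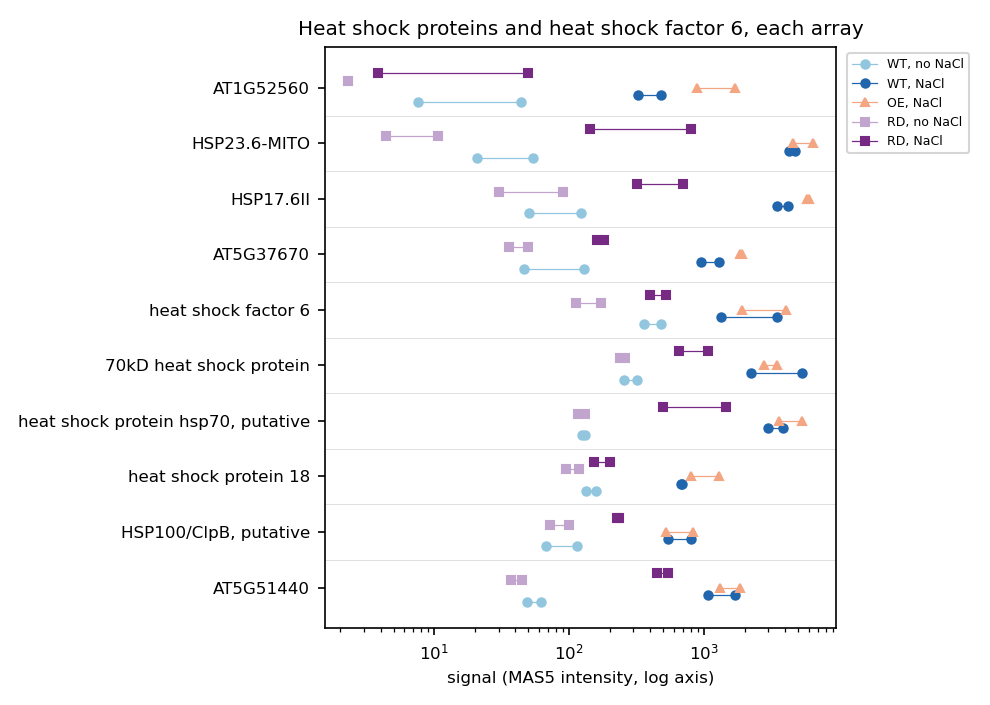
MAS5 signal on a log axis of the 9 lower heat shock proteins and of 247509_at (heat shock factor 6), with 1 symbol per array and a line between replicates. In each row the RD NaCl pair lies below the WT NaCl and OE NaCl pairs, and above the untreated RD pair.

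After heat shock, both RD arrays lay above both WT NaCl arrays for 9 of the 10 members (28.6% of all tested). The exception was 247509_at, at 2363 and 1899 in RD after heat shock and 1335 and 3452 in WT NaCl. Its signals in WT after heat shock were 3121 and 4303. Both RD heat arrays were below both WT heat arrays for 8 of the 10 (21.5% of all tested), and the genotypes overlapped for HSP17.6II and 261838_at. HSP17.6II read 25751 and 30495 in WT and 28484 and 19531 in RD after 1 h at 37 °C, HSP23.6-MITO 32920 and 35427 in WT and 32325 and 21703 in RD, and AT5G37670 20938 and 28956 in WT and 19822 and 14378 in RD.

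In a further group of lower transcripts both WT NaCl arrays lay above both untreated WT arrays. Of all 68 lower probe sets, 35 were higher and 6 lower in OE NaCl than in OE control at an adjusted p under 0.05, against 14.6% and 15.9% of all tested (30.5% in either direction), and 27 did not pass. That OE comparison, added after values had been seen, shares no array with RD or WT. Among the 10 of the heat shock block 9 were higher with NaCl in OE, and among the 13 of the auxin block 4 were.

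AT1G67360, described as a stress-related protein, had signals of 320.3 and 449 in untreated WT, 823 and 3318 in WT NaCl, 2682 and 6852 in OE NaCl and 181 and 142 in RD NaCl (-3.37 ± 0.47, adjusted p = 0.00747). Both RD NaCl arrays were below the untreated RD arrays (202 and 213). AT5G12110, described as a subunit of elongation factor 1B, which serves translation, had 2442 and 3057 in WT NaCl and 629 and 250.4 in RD NaCl (-2.78 ± 0.34, adjusted p = 0.00377). AT1G21550, described as similar to a calcium-binding protein, had 193 and 611 in WT and 44.9 and 34.2 in RD, was not called Present in RD NaCl and was at least 8.76-fold lower (adjusted p = 0.008).

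TIL (AT5G58070), a lipocalin known as temperature-induced, had 9418 and 11180 in WT NaCl and 4110 and 3584 in RD NaCl (-1.42 ± 0.21, adjusted p = 0.00984). It was lower in untreated RD too, at 1530 and 1340 against 3208 and 3607 (-1.25 ± 0.21, adjusted p = 0.0467). AT3G10020, of unknown function, had 12110 and 15199 in WT and 3817 and 3910 in RD under NaCl (-1.81 ± 0.29). AT3G14200 had 874 and 1170 in WT and 178 and 277 in RD (-2.19 ± 0.40), and AT3G17110 had 350.3 and 736 in WT and 122 and 155 in RD (-1.89 ± 0.37). AT4G23493 was not called Present in RD NaCl (90.1 and 57.7, against 351 and 806 in WT) and was at least 7.38-fold lower.

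Some metabolic enzymes belonged here as well, all named from descriptions and picked after their values were seen. A cytochrome P450, 256589_at, read 10524 and 10494 in WT NaCl and 3048 and 3059 in RD NaCl (-1.78 ± 0.27, adjusted p = 0.0124), and a tyrosine transaminase-like protein, 254232_at, read 935 and 1243 in WT and 186 and 428 in RD (-1.94 ± 0.33). Both were also lower in untreated RD (-1.85 ± 0.27 with adjusted p = 0.0281, and -2.58 ± 0.33 with adjusted p = 0.00715). A fructose bisphosphate aldolase, 263921_at, which acts in glycolysis, read 3169 and 3059 in WT and 1132 and 1244 in RD (-1.39 ± 0.25).

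In other lower transcripts the WT NaCl arrays did not both lie above the untreated WT arrays. IQD19 (AT4G14750), of a family of calmodulin-binding proteins, had the smallest p of the comparison. Its signals were 159.7 and 146 in untreated WT and 160.3 and 154 in untreated RD, then 66.6 and 65.9 in WT NaCl, 76 and 80.2 in OE NaCl and 5.0 and 6.2 in RD NaCl. No RD NaCl array called it Present, and it was at least 6.51-fold lower there than in WT (fitted difference -3.57 ± 0.30, adjusted p = 0.000262). It passed without each of the 4 arrays in turn, with a highest adjusted p of 0.00384.

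LCR68 (AT2G02130), described on the array as a protease inhibitor, had signals of 1063 and 333 in WT NaCl and 57 and 49.4 in RD NaCl (-3.49 ± 0.44, adjusted p = 0.00405). It was also lower without NaCl, at 2785 and 3372 in WT and 124 and 197 in RD (-4.29 ± 0.44, adjusted p = 0.00107). AT5G22860, described as a prolylcarboxypeptidase-like enzyme, had 163 and 136 in WT and 19.1 and 35.7 in RD under NaCl (-2.51 ± 0.29, adjusted p = 0.00307). AT4G13580, described as like a disease resistance response protein of pea, had 118 and 50.4 in WT and 13.9 and 15.7 in RD and was at least 5.10-fold lower, without a Present call in RD. AT1G23340 (at least 4.78-fold), AT3G09405, described as an enzyme that removes acetyl groups from pectin (-2.09 ± 0.33), AT5G47610 (595 and 1679 in WT and 170.2 and 246 in RD, -2.29 ± 0.37) and AT1G67860 (-1.81 ± 0.28) completed the 20 largest differences among the probe sets with 1 assigned gene.

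Further lower probe sets known only by their description follow, again picked after their values were seen and not sorted by the WT response to NaCl. A gibberellin 20-oxidase, 248371_at, an enzyme of gibberellin synthesis, had 187 and 369 in WT and 32.5 and 52.3 in RD (-2.67 ± 0.45, adjusted p = 0.0195). A cytokinin oxidase-like protein, 251178_at, of a class that breaks down cytokinin, had 337 and 318 in WT and 93 and 128 in RD (-1.59 ± 0.23). For 251178_at both WT NaCl arrays lay above the untreated WT arrays (243 and 204). The putative auxin transport protein 262263_at had 2056 and 2634 in WT and 719 and 924 in RD (-1.51 ± 0.24), and 263406_at, described as the subtilisin-like protease AIR3, 404 and 466 in WT and 160.1 and 155 in RD (-1.46 ± 0.27). The phototropism protein described at 247288_at had 589 and 497 in WT and 215 and 118 in RD (-1.76 ± 0.22, adjusted p = 0.00403), and the one similar to phytochrome kinase substrate 1 (261480_at) 1835 and 1803 in WT and 421 and 657 in RD (-1.79 ± 0.35).

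Untreated RD against untreated WT served as the background of the line. There 2 probe sets were higher and 15 lower (0.112% of those tested, with 0.0990% lower), with 663 at an unadjusted p under 0.05. Of the 68 transcripts lower under NaCl 6 were also lower without it, LCR68, TIL, 256589_at, 254232_at, 265561_s_at (described as a glycine-rich protein) and 263297_at (described as an ADP-ribosylation factor). Of the 2 higher ones, 258325_at was also higher without NaCl. In 38 of the 68 both untreated RD arrays were below both WT arrays (16.2% of all tested), in 5 above (15.8%), and in 25 the genotypes overlapped. The median untreated difference of the 68 was -0.63 and the median over all tested 0.00. Outside the auxin and heat shock blocks, 33 of 45 lay below without NaCl, with a median of -0.91, while in the heat shock block 5 of 10 did, with a median of -0.53. These untreated arrays share no array with the NaCl comparison, but they shared the estimate of the spread.

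**Figure D4:**
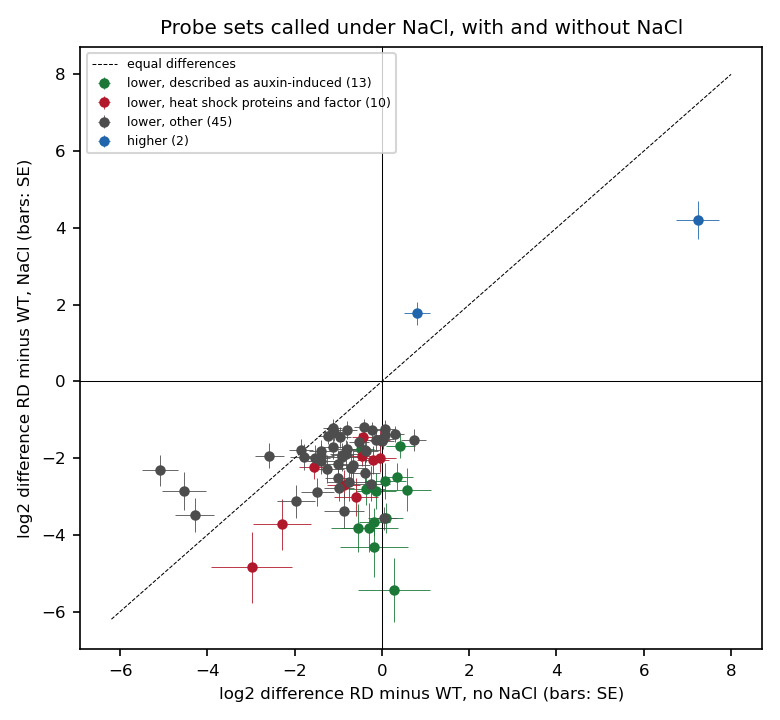
Log2 difference RD minus WT without NaCl (x axis) and with NaCl (y axis) for the 70 probe sets that passed under NaCl; bars are SE and the dashed line marks equal differences. The 13 auxin-induced probe sets (green) lie near 0 on the x axis and between -1.68 and -5.44 on the y axis.

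The difference between those 2 differences was tested in the same fit. It passed for 1 probe set, IQD19 (fitted value -3.62 ± 0.42, adjusted p = 0.0135), 0.00660% of those tested, and 496 had an unadjusted p under 0.05. Since IQD19 was not called Present on either RD NaCl array, its size is known only as a bound, -2.75 or lower, and with signals floored at 16 the call was lost and 0 probe sets passed. Of the 68 lower transcripts 63 had a more negative value with NaCl than without. They were picked by their NaCl value, which enters this difference, so that count was partly fixed in advance. The same holds for the medians that follow, and the share over all tested probe sets was not counted. In the auxin block the median of the difference was -3.29, in the heat shock block -1.66 and in the other 45 -1.06, none of which is a test of a block. For SAUR-AC1 it was -3.49 ± 0.51 and for 259783_at -3.65 ± 0.56, with adjusted p = 0.054 and 0.0689. That the remaining transcripts differ more with NaCl than without was therefore not shown at the threshold.

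OE under NaCl gave a second set of arrays to lay beside RD. For all 68 lower probe sets both RD NaCl arrays were below both OE NaCl arrays, which held for 21.3% of all tested. The RD arrays are the same in both comparisons, so this describes the levels and is no independent count. In the auxin block, 249109_at read 845 and 1072 in OE and 931 and 1080 in WT under NaCl.

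Most gene lists held no call. Of 27 lists 22 had a tested member, 3 had a lower call and 0 a higher call. Over all tested probe sets 0.462% were called, so 0 calls would be usual in lists this short. A list without a call therefore says little about its pathway. Many listed genes were not tested. Tested were 2 of 24 listed genes in ABA signalling, 2 of 13 in ion transport, 2 of 8 WRKY factors and 3 of 21 heat shock factors. Among the 7 tested ABA-responsive and desiccation genes, which help cells withstand water loss, 0 passed, with a median of 0.36. The dehydrin COR47 read 16181 and 28091 in WT and 22133 and 29419 in RD (0.26 ± 0.35), RD22 read 4326 and 6906 in WT and 8505 and 9160 in RD (0.69 ± 0.51), and COR15A read 770.3 and 8776 in WT and 4591 and 9486 in RD (1.34 ± 1.04). Of the 4 tested of 6 listed DREB and CBF factors 0 passed, with a median of -0.04. The drought factor DREB2A had 12685 and 17853 in WT and 11632 and 8481 in RD (-0.60 ± 0.28), and DREB1C and DREB2B had 0.44 ± 0.55 and -0.52 ± 0.48. The 2 tested genes of ABA signalling, ABI1 (0.08 ± 0.39) and ABF3 (0.65 ± 0.47), did not pass.

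In the zinc finger and antioxidant list STZ (-0.30 ± 0.31), Zat12 (-0.52 ± 0.45) and the glutathione transferase GST6 (-0.35 ± 0.26) did not pass. The same held for the 4 tested of 22 listed jasmonate genes, with OPR3 at 0.22 ± 0.44, LOX2 at 0.78 ± 0.36 and AOS at 0.62 ± 0.33. It also held for the ethylene factors ERF4 (-0.12 ± 0.28), ERF6 (-0.44 ± 0.36) and ERF1 (-0.05 ± 0.60), and for WRKY6 (0.32 ± 0.26) and WRKY53 (0.69 ± 0.35). The salt tolerance kinase SOS2 (0.07 ± 0.44) and the proton pump PMA (0.16 ± 0.21) were the tested genes of ion transport. Among the 7 tested of 11 listed wall-loosening genes TCH4 (-0.33 ± 0.84), EXPA10 (-0.32 ± 0.33) and EXPA1 (-0.63 ± 0.36) were the brightest, and 0 passed. In the list of folding in the endoplasmic reticulum BZIP28 (-0.53 ± 0.19), BZIP60 (-0.19 ± 0.31) and CRT1 (-0.15 ± 0.37) did not pass. The lists of proline and galactinol synthesis, salicylate and defence, flavonoid synthesis and clock genes had 0 calls as well.

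The 69 plastid and 16 tested mitochondrial genome transcripts had 0 calls, with medians of 0.44 and 0.64. For the mitochondrial transcripts the median was 1.46 in replicate pair 1 and -0.05 in pair 2, so their shift lay in the pair that holds RD NaCl 1. Of the 271 probe sets described as ribosomal proteins 0 passed, with a median of 0.29, and 2 were higher with the replicate block within each treatment. The reference genes UBQ10 (0.40 ± 0.24), ACT2 (0.38 ± 0.29) and AT4G34270 (-0.20 ± 0.30) did not pass.

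**Figure D5:**
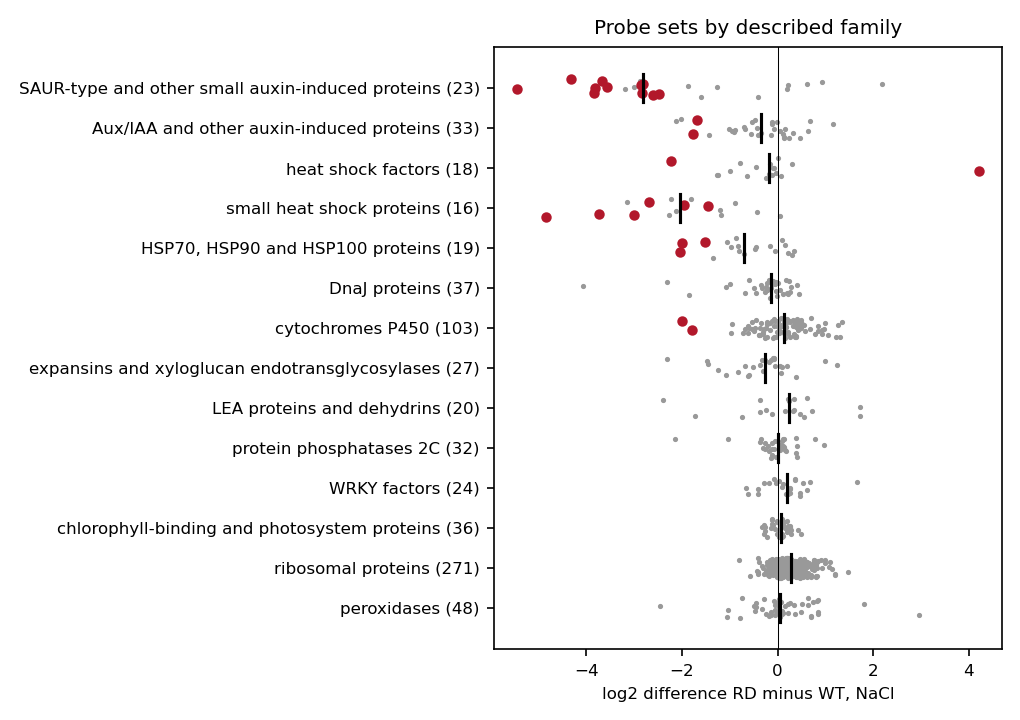
Log2 difference RD minus WT under NaCl for tested probe sets in 14 families taken from the array descriptions, with the number tested in brackets; red points passed and the black bar is the median. The SAUR-type family (median -2.82) and the small heat shock proteins (median -2.04) are shifted to lower values in RD, while most other families are centred near 0.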

How the data were processed

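RNA of seedlings was hybridised to Affymetrix ATH1 arrays. The deposited files hold 1 MAS5 signal (a linear intensity) per probe set, scaled by the authors to a trimmed mean near 500 on each array, as the values show, with a deposited detection p-value and its Present, Marginal or Absent call. The submitters' processing notes name MAS5 without a version. Control probe sets were left out.

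Signals under 0.1 were set to 0.1 and log2 transformed. limma 3.58.1 (R 4.3.3; lmFit and eBayes with an intensity trend) was fitted to all 18 arrays with 9 groups and the replicate number as a block, leaving 8 residual degrees of freedom. On simulated data for the NaCl comparison over 15156 probe sets it recovered 21 of 100 changes of 1 and 75 of 100 changes of 2 on the log2 scale, with 5 false calls. The simulated noise was independent, with the same spread on every array of a probe set and no replicate or series effect. In the data the replicate differences had a standard deviation of 0.81 in WT NaCl and 0.45 in OE control, so these figures need not hold there. Under NaCl the replicate differences of RD and WT correlated at 0.395, of RD and OE at 0.427 and of WT and OE at 0.753 across probe sets, which was taken as pairing. WT NaCl 1 and OE NaCl 1 share the other array series, so pairing and series cannot be told apart in the last value. In the control and heat groups the correlation with the WT NaCl replicate difference was only 0.0125 (RD control) to 0.141 (WT heat), though 1 block covered all treatments. The labels call the arrays biological replicates.

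Named genes were the 20 largest differences among passing probe sets with 1 assigned gene, the passing members of each gene list and its 3 brightest members that did not pass. Probe sets without an assigned gene were named after their values were seen. The members and lists were chosen with earlier results of these data known. Groups in which no array called a probe set Present gave only a bound, from means of log2 signals (so not the ratio of mean signals), with each dim signal raised to the lowest Present signal of its array where it was below that. Arrays limit precision by their number, and no read depth applies. Alternatives covered the block, array series, normalization, floor, filter, trend, arrays fitted and single arrays left out.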

Additional observations from a re-analysis of the deposited data

Results flagged for a closer look

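IQD19 was the 1 probe set whose RD minus WT value differed between NaCl and untreated seedlings in the test of that difference, with a fitted value of -3.62 ± 0.42 on the log2 scale (limma, adjusted p = 0.0135). Neither RD NaCl array called it Present, so the size is known only as a bound, -2.75 or lower. Both RD NaCl arrays lay below both WT NaCl arrays, and the untreated genotypes overlapped. With signals floored at 16, without the filter on Present calls and with only the compared arrays 0 probe sets passed, and leaving out 1 array gave 0 to 5.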

How the results depend on the processing

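Under NaCl, where 70 probe sets passed, 54 did with no replicate block, 88 with a block for array series, 71 after quantile normalization, 73 with a floor of 16, 95 without the filter on Present calls, 96 with Present calls in any group and 67 without the intensity trend. The count moved further to 0 with the 4 arrays alone, 129 in the first array series and 130 with the replicate block set within each treatment, an alternative chosen after seeing the data. Leaving out 1 array gave 9 to 50, lowest without WT NaCl 2. In these fits and in the first array series a lone array is assumed to vary like the other groups. Without NaCl the 17 calls became 8 with no replicate block, 6 with the floor of 16, 8 without the filter, 10 with Present calls in any group, 10 without the trend, 209 with only the compared arrays, 31 with the block within treatments and 7 to 9 without 1 array. The 1 call for the difference between treatments became 3 with no replicate block, 7 with the array series block, 0 with the floor of 16, 0 without the filter, 0 with only the compared arrays, 8 with the block within treatments and 0 to 5 without 1 array. Of 1792 values of named results under alternatives 1478 kept their side of the threshold, 310 kept direction and no longer passed, and 4 newly passed. Of the results that had passed 0 changed sign. The cause of these shifts was not tested. Of the 70 calls 6 passed in all 4 fits that leave out 1 NaCl array and 17 in none, and 10 of the 68 lower ones had no Present call in RD NaCl, so their size is known only as a bound.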
